A study of Arabidopsis thaliana with 16 samples.

Results

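The comparison of ddm1 with wild type (WT) in Arabidopsis thaliana seedlings rested on 4 of the 16 RNA sequencing libraries of the series, 2 from ddm1 plants (genotype ddm1-/-) and 2 from wild type. Its libraries were taken by their labels, as the ddm1 and WT columns of the seedling table. Every plant had grown on MS medium plates at 22 °C with 16 h of light and 8 h of dark, and total RNA was taken from whole 2-week seedlings. Neither the ddm1 allele, nor the number of generations the line had been kept without DDM1, nor the hour of harvest is given in the labels. The same table holds tcx5/6 ddm1 seedlings (tcx5-/-tcx6-/-ddm1-/-) and tcx5/6 seedlings, 2 libraries each, which entered the fit and are used below as further libraries without and with DDM1; whether their ddm1 mutation has the same origin as that of the ddm1 line is not given. Nothing states that the 2 libraries of a group came from separate cultures, and the p-values then cover only how these libraries vary, which may be technical.

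DDM1 (DECREASE IN DNA METHYLATION 1) is a nucleosome remodeller of the SNF2 family that opens heterochromatin to the DNA methyltransferases and is required there for cytosine methylation in every sequence context. Plants without it lose most methylation of transposons and of the genes that lie among them around the centromeres, and part of this silent DNA is then transcribed. Outside heterochromatin, methylation is also carried by the RNA-directed pathway, in which small RNAs guide the methyltransferase DRM2, and it is removed by DNA glycosylases such as ROS1. The comparison therefore asks which genes are transcribed only once DDM1 is lost, and which genes, active in WT already, change by degree.

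The deposited values are per-gene read counts brought to one library size by the authors, here called signal; they are not divided by gene length and are not raw counts. The libraries summed to 38.2 and 38.8 M of signal (M is the prefix mega) in ddm1 and to 33.3 and 34.0 M in WT. Replicates correlated across genes at a Pearson r of 0.984 in ddm1 and 0.995 in WT. A difference in how libraries were made or counted ran along with the genotype: 74.6 and 80.8% of the lowest values lay on even steps in ddm1, against 27.1 and 27.2% in WT. The tcx5/6 ddm1 libraries, at 74.2 and 70.8%, were like ddm1 in this, and the tcx5/6 libraries, at 31.2 and 27.5%, were like WT, so library kind cannot be told apart from the missing DDM1 in any result below. Genes listed at 0 include some known to be active in seedlings, among them MYC2, the central jasmonate transcription factor, and RPS2, an immune receptor, which were at 0 in all 4 libraries, so a 0 is given only as listed. One ddm1 library stood apart from the other in seed storage genes: the 15 seed markers summed to 3359 signal in ddm1 replicate 1 and 78.2 in ddm1 replicate 2, against 48.5 and 61.0 in WT.

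DDM1 mRNA was low in the mutant. Its signal was 119 and 145 in ddm1, against 709 and 648 in WT, and the groups did not overlap. The difference was -2.36 on the log2(signal + 1) scale (SE 0.13, limma adjusted p = 2.73e-06). TCX5 and TCX6, which encode DNA-binding subunits of the DREAM complex and are mutated in other lines of the series, did not pass the test (log2 difference 0.35, adjusted p = 0.139, and -0.41, adjusted p = 0.0928). TCX5 passed with the ddm1 and WT libraries fitted alone (adjusted p = 0.0476). TCX6 passed without ddm1 replicate 2 (-0.69, adjusted p = 0.00689), while without ddm1 replicate 1 its difference was -0.14 (adjusted p = 0.451).

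Of 32833 genes in the table, 25016 could be tested and 12418 were called at an adjusted p under 0.05, which is 49.6% of those tested. Higher signal in ddm1 was called for 6584 genes (26.3%) and lower signal for 5834 (23.3%). Every count of list members below is to be read against these shares. Of the called genes, 299 were switched on, meaning at least 20 signal in both ddm1 libraries and under 2 in both WT libraries, and 19 were switched off, the reverse. Another 10354 were graded, with at least 20 signal in all 4 libraries: 5342 were higher and 5012 lower in ddm1. Which direction held more graded genes turned with the scaling, since median-of-ratios scaling gave 5128 higher and 5327 lower. The remaining 943 higher and 803 lower calls were low or mixed. With a log2 difference of at least 1 as well, 13.0% of tested genes were higher and 8.46% lower. The classes are drawn from the same values as the test, so the calls within them are given as a description.

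The 299 switched-on genes reached levels in ddm1 that ran from low to high. In WT, 263 of them were listed at 0 in both libraries. In ddm1, the mean signal was at least 1000 for 26 genes, 100 to 1000 for 158 and 20 to 100 for 115, with a median of 152. The replicates lay within a factor of 2 of each other for 282 genes, and 3 differed by more than a factor of 5. In sum, the class took 0.402 and 0.400% of the signal of the ddm1 libraries. Switching on concerned few of the genes it could have concerned, since 9839 genes were under 2 in both WT libraries and 3.04% of these were switched on. Switching off was rarer still, at 0.205% of the 9268 genes under 2 in both ddm1 libraries.

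**Figure D1:**
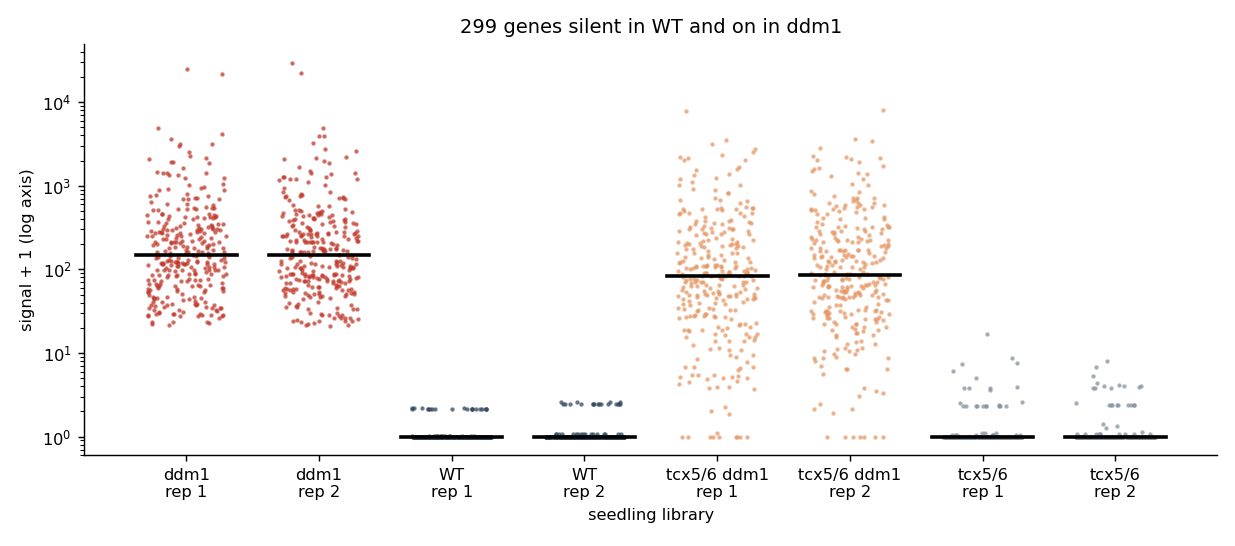
Signal + 1 on a log axis in each of the 8 seedling libraries for the 299 genes silent in WT and on in ddm1, 1 point per gene, with the median of each library as a bar. All points of both ddm1 libraries lie at 20 signal or more and all points of both WT libraries under 2, as the class requires; the tcx5/6 ddm1 and tcx5/6 libraries, which the class did not use, show the genes mostly on and mostly silent.

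The class was also looked up in libraries that played no part in forming it. Of the 299 genes, 226 were at 20 signal or more in both tcx5/6 ddm1 libraries, 283 were under 2 in both tcx5/6 libraries, and 216 met both conditions. Those 216 are 72.2% of the switched-on genes and 70.8% of the 305 genes that met both conditions in the whole table. The level was lower there: the median was 81.9 signal in tcx5/6 ddm1, and 199 genes had both ddm1 libraries above both tcx5/6 ddm1 libraries, while 37 had both below. WT organs were also largely silent for the class, with 240 of the 299 genes under 2 in both WT leaf libraries and 259 in both WT shoot apical meristem libraries. At least 20 was reached by 9 genes in both leaf libraries, among them NAC090, a NAC transcription factor, and by 5 genes in both meristem libraries, among them PHT1;7, a phosphate transporter. The leaf and meristem table was normalized separately from that of the seedlings.

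Position set the class apart in description. Of the 299 genes, 209 (69.9%) lay within 3 Mb of a centromere midpoint, against 12.02% of all genes in the table and 19.5% of the genes silent in WT. Chromosome 2 held 82 of them, the most of any chromosome. Counted over the genes silent in WT, 63 of 362 were switched on within 1 Mb of the midpoint, followed by 15.4% between 1 and 2 Mb, 5.56% between 2 and 3 Mb and 3.11% between 3 and 4 Mb, and the share was under 1.6% in every bin from 5 Mb outwards. Within 3 Mb lay 6.80% of the graded higher and 8.84% of the graded lower genes. Graded genes need at least 20 signal in all 4 libraries, so neither base above applies to them. Of genes at that level, 37.6% of 85 were graded lower within 1 Mb, 30.5% between 1 and 2 Mb and 29.4% between 2 and 3 Mb. From 3 Mb outwards this share was 23.5 to 29.6%. The graded higher share was 23.5, 26.2 and 24.2% in the same inner bins, and 27.37% or more further out. Whether either share changes with distance was not tested. Of the 299 genes, 93 had an adjacent switched-on gene, in 43 runs. The longest run was 4 genes, from AT2G06562 to AT2G06645 (chromosome 2, 2617554 to 2649647, TAIR10.1). Some runs join overlapping annotations, such as AT4G05205 and AT4G06643. Whether runs exceed what the crowding near centromeres would give was not tested. An overlap with another gene was recorded for 35 switched-on genes (11.7%), against 30.7% of the table.

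**Figure D2:**
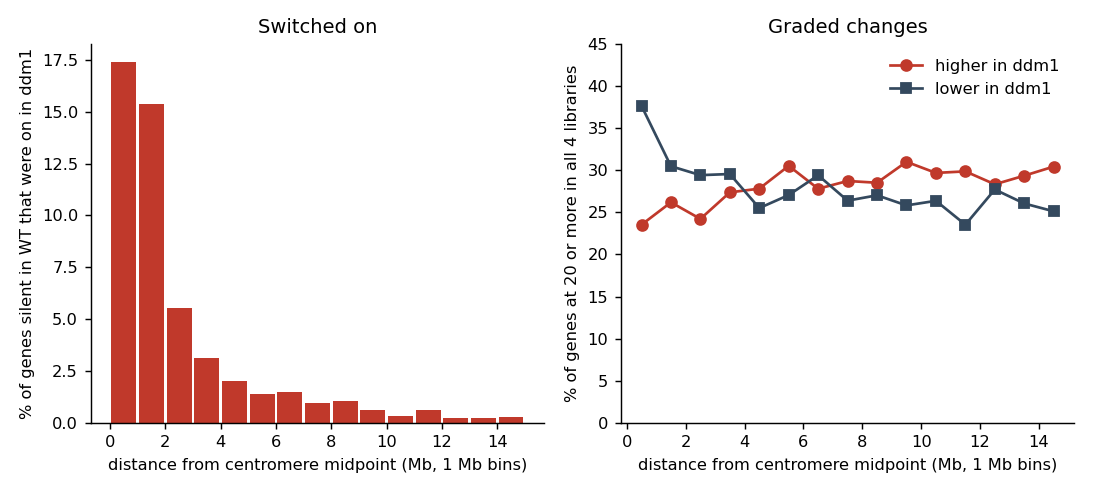
Left, the percentage of genes silent in WT that were on in ddm1, in bins of 1 Mb from the centromere midpoint, starting from 63 of 362 genes in the innermost bin. Right, the percentage of genes with at least 20 signal in all 4 libraries that were graded higher (circles) or lower (squares) in ddm1 in the same bins; these run between 23.5 and 37.6%, and the innermost bin holds 85 genes.

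Most switched-on genes have no known function. By annotation, 235 were protein coding, 47 long non-coding RNAs, 7 other non-coding RNAs, 8 microRNA loci and 2 snRNA loci. Long non-coding RNAs were 15.7% of the class, against 10.6% of the table and 28.1% of the genes silent in WT. Of the long non-coding RNAs silent in WT, 1.70% were switched on, against 4.28% of the silent protein-coding genes. Uncharacterized or hypothetical proteins made up 111 of them (37.1%, against 9.10% of the table), and 25 carried a gene symbol (8.36%, against 32.9%). Long non-coding RNAs took 0.160 and 0.172% of the signal in ddm1, against 0.0653 and 0.0640% in WT; without AT3G06465, the highest of them in ddm1, the shares in ddm1 were 0.0951 and 0.0956%, with those in WT as before. Families below were picked out after their products had been read. Of 7 genes in the table annotated as Ulp1 proteases, a family of SUMO-removing enzymes that is often carried by transposons in plants, 6 were switched on. So were 6 of 30 genes for myosin heavy chain-like proteins and 7 of 31 related to beta-galactosidase.

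The highest of all was AT3G06465, a long non-coding RNA 0.79 Mb from the midpoint of chromosome 3, at 24926 and 29629 signal in ddm1 and 0 in both WT libraries. AT2G11778, which encodes a short uncharacterized protein on chromosome 2, followed at 21874 and 22540 in ddm1, with 0 in both WT libraries. The non-coding RNA AT2G15555 had 4943 and 4883, and AT5G28810, a Ulp1 protease gene, had 4174 and 3930, again with both WT libraries at 0. All 4 were on in tcx5/6 ddm1 too, at 7806 and 8131 for AT3G06465, 2056 and 1704 for AT2G11778, 3496 and 3401 for AT2G15555, and 2732 and 2822 for AT5G28810. A pair of MADS-box genes, members of the transcription factor family that includes the floral identity genes, were among the leading 15: AT1G59920 had 3154 and 3288 signal in ddm1 and 0 in WT, and AT5G35120 had 2514 and 1503 in ddm1 and 0.025 and 1.43 in WT. The others in the leading 15 ran from AT2G03965, at 3668 and 3935 in ddm1 and 0 in WT, to AT5G38190, a myosin heavy chain-like gene at 1922 and 1676 in ddm1 and 0 in WT. AT2G03965 overlaps another annotated gene, so its reads are not certain to be its own.

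Genes whose annotation names a transposon or one of its proteins were partly in the class. This list of 199 genes holds 84 host transcription factors of the integrase-type DNA-binding family, which share only a word with transposons, and other host genes such as CMT3, TERT and UBP1B; transposon loci annotated as pseudogenes or elements were not analysed here. Of 151 members tested, 52 were called higher and 28 lower. Without the integrase-type proteins, which was decided after their names were seen, 28 of 75 were higher and 16 lower, with a median log2 difference of 0.27 against 0 for all genes tested. Switched on were 18 of these 115 genes, or 24.0% of the 75 that were silent in WT. All 18 are among the 28 called higher, and their signal in ddm1 was enough to make them testable. Members near 0 in all libraries could not be tested, so the counts called higher, 52 and 28, and the median are partly set by this. AT3G43837, a reverse transcriptase-like gene, led the switched-on members at 1401 and 1263 signal in ddm1 and 0 in WT. AT3G30820, annotated as a retrotransposon protein, had 782 and 787 in ddm1 and 0 in WT, and AT2G06425, a transposase gene of the En/Spm kind, had 334 and 414 in ddm1 and 0 in WT. The members called lower took in the host genes CMT3, HTA11, ADC1, TERT and UBP1B, and also DAYSLEEPER. DAYSLEEPER, a domesticated hAT transposase, had 1485 and 1604 signal in ddm1 and 2089 and 2187 in WT (log2 difference -0.47, SE 0.10, adjusted p = 0.00376).

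MicroRNA loci came on in 8 cases. This is 3.16% of the 253 microRNA loci silent in WT, near the 3.04% of all genes silent in WT. Of these, 5 are the copies of MIR854, which lie in Athila retrotransposon sequence beside the centromere of chromosome 5, within 0.7 Mb of its midpoint; the others are MIR2933a, MIR2933b and MIR8174. The mature sequences are shown because the copies cannot be told apart by them. Each is written 5′ to 3′ from the RefSeq TAIR10.1 genome, with the seed (bases 2 to 8) in capitals; the 5 copies of miR854 share 1 sequence, and so do both copies of miR2933.
miR854a to miR854e: gAUGAGGAuagggaggaggag
miR2933a and miR2933b: gAAAUCGGagaggaaauucgcc
miR8174: aUGUGUAUagggaagcuaauc
The libraries were made for mRNA, so the values count fragments of the precursor transcripts and not mature microRNA, and reads may be shared among near-identical copies. MIR854c had 955 and 1102 signal in ddm1, MIR854a 757 and 731, MIR854b 685 and 765, MIR854e 325 and 397, and MIR854d 305 and 260, with 0 in both WT libraries for each. MIR2933b had 236 and 260 signal in ddm1, MIR2933a had 83.4 and 104, and MIR8174 had 73.6 and 72.3, likewise with 0 in WT. All 8 loci were on in both tcx5/6 ddm1 libraries, at 30.4 signal (MIR2933a) to 379 (MIR854c), and at 0 in both tcx5/6 libraries.

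Few switched-on genes have a described role. FWA, the homeodomain gene whose promoter repeats are methylated in WT plants and whose ectopic activity delays flowering, had 148 and 252 signal in ddm1 and 0 in both WT libraries; it overlaps another annotated gene. ADR1-L3, a relative of the helper immune receptors of the ADR1 family, had 212 and 179 in ddm1 and 0 in WT. PAP19, a purple acid phosphatase that releases phosphate, had 126 and 336 in ddm1 and 0 in WT. EPR1, a proline-rich extensin of the seed endosperm wall, had 935 in ddm1 replicate 1 and 24.99 in replicate 2, against 0 in WT, and was at 0 in both tcx5/6 ddm1 libraries; its higher value came from the library that also held the seed storage transcripts, whose part in it was not tested.

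SDC, an F-box gene held off in WT plants through methylated tandem repeats upstream of it, missed the class because its WT signal was above the limit of 2. It had 4262 and 6166 signal in ddm1, against 4.65 and 3.33 in WT, a log2 difference of 10.02 (SE 0.38, adjusted p = 6.33e-07). Its upstream window is shown because those repeats are what methylation silences. The 300 bases upstream of the annotated start, chr2:7681862-7682161 on the plus strand of TAIR10.1, are given 5′ to 3′, with the longest stretch that occurs again exactly, 38 bases long and repeated at a distance of 64 bases, in capitals.
SDC: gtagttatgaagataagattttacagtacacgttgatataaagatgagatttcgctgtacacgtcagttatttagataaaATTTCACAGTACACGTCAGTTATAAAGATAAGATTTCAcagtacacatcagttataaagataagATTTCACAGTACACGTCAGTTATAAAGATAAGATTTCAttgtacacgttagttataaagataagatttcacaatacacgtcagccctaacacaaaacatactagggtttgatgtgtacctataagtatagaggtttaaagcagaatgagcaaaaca
In tcx5/6 ddm1, SDC averaged 188 signal, against 0 in both tcx5/6 libraries; whether this differs from ddm1 was not tested. Of 9 genes on the list of methylation-silenced genes that are in the table, 7 could be tested, and 4 were called higher and none lower, with a median log2 difference of 1.61. FWA was at 0 in both WT and both tcx5/6 libraries, so only its signal in libraries without DDM1 made it testable. The count called higher and the median are partly set by this. QQS, an orphan gene that regulates starch, had 1826 and 1851 signal in ddm1, against 1021 and 1031 in WT (log2 difference 0.84, SE 0.13). ALN, allantoinase of purine breakdown, had 1300 and 970 in ddm1, against 610 and 537 in WT (log2 difference 0.97, SE 0.15). The imprinted genes PHE1, MEA and HDG9 did not pass the test. The list of loci known to gain methylation in ddm1 lines had 3 members, of which SUP was at 0 in all 4 libraries and the others were called in opposite directions. AG, a floral MADS-box gene, had 29.8 and 23.3 signal in ddm1, against 11.7 and 12.5 in WT (log2 difference 1.06, SE 0.38, adjusted p = 0.0443), and missed the threshold under 7 of 11 alternatives, with an adjusted p of up to 0.158. BNS, an anaphase-promoting complex gene, had 42.6 and 23.9 signal in ddm1, against 153 and 112 in WT (log2 difference -2.00, SE 0.58, adjusted p = 0.0206), and it missed the threshold without ddm1 replicate 2 or without either WT library (adjusted p = 0.109, 0.116 and 0.0595).

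The 19 switched-off genes were low, with a median of 37.4 signal in WT. Of them, 2 lay within 3 Mb of a centromere midpoint, as did 12.02% of all genes in the table. ABCF2, an ABC protein of the family without membrane domains, was at 0 in both ddm1 libraries, against 157 and 219 in WT. AT3G09450, of the fusaric acid resistance family, had 1.28 and 1.69 in ddm1, against 186 and 173 in WT. BBX30, a small B-box protein of light signalling, had 1.28 and 1.69 in ddm1, against 141 and 161 in WT. DSS1(V), a proteasome lid subunit gene, had 0 and 0.868 in ddm1, against 72.8 and 80.7 in WT. Of the 19, 8 overlap a gene on the opposite strand, ABCF2, AT1G21770 and DSS1(V) among them, as do 26.8% of all genes in the table. The strand setting of the counting is not given, and the part of such overlap in their values was not tested. In tcx5/6 ddm1, 5 of the 19 were likewise under 2, with at least 20 in tcx5/6.

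Graded changes were many and mostly small. They took in 55.7% of the 18595 genes with at least 20 signal in all 4 libraries. The median log2 difference was 0.77 among those higher and -0.68 among those lower in ddm1. A difference of at least 1 was reached by 2020 of the higher and 1299 of the lower genes, of at least 2 by 683 and 158, and of at least 3 by 266 and 35. Large graded changes were thus more often rises. Genes overlapping another on the opposite strand made up 22.0% of the higher and 30.2% of the lower graded genes, against 26.8% of the table.

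Among genes with a symbol and no overlap between the groups, the 10 largest graded rises were in genes of several kinds. BAM5, an extraplastidial beta-amylase, had 7961 and 25534 signal in ddm1, against 85.1 and 131 in WT (log2 difference 7.06, SE 0.54). PCC1, a small membrane protein under circadian and pathogen control, had 2992 and 5638 in ddm1, against 64.2 and 54.0 in WT (6.10, SE 0.33). IPS1, a non-coding RNA that rises when phosphate is short, had 3966 and 4641 in ddm1, against 66.0 and 84.6 in WT (5.82, SE 0.21). PLA2A, a patatin-like lipase of the pathogen response, had 5219 and 8215 in ddm1, against 110 and 115 in WT (5.85, SE 0.34). PDF1.3, a plant defensin, had 2026 and 5667 in ddm1, against 49.2 and 51.4 in WT (6.05, SE 0.39). PRR3, a pseudo-response regulator of the clock, had 1336 and 1435 in ddm1, against 27.2 and 35.2 in WT (5.44, SE 0.17). The others were PR1, COR15B, GRP7 and ELF4, which are described with their groups. That both ddm1 libraries were above both WT libraries for each follows from the choice of genes without overlap. BAM5 and PDF1.3 also differed widely between the ddm1 libraries.

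The largest graded falls included 3 clock genes, LHY, RVE1 and RVE8. HYH, a bZIP factor that works with HY5 in light signalling, had 35.2 and 64.8 signal in ddm1, against 705 and 686 in WT (log2 difference -3.83, SE 0.28). STH, a B-box protein of light signalling, had 209 and 216 in ddm1, against 2291 and 2463 in WT (-3.48, SE 0.16). ARGAH2, an arginase induced by jasmonate, had 124 and 165 in ddm1, against 2776 and 3122 in WT (-4.36, SE 0.14). SAE1B, a subunit of the SUMO-activating enzyme, had 27.8 and 44.3 in ddm1, against 1029 and 732 in WT (-4.59, SE 0.37); it has a near-identical copy, so its reads are uncertain. STR16, a sulfurtransferase, had 98.7 and 265 in ddm1, against 2826 and 2856 in WT (-4.12, SE 1.07, adjusted p = 0.0125), and missed the threshold without ddm1 replicate 1 (adjusted p = 0.0811) or without either WT library (0.0602 and 0.0602). FADA, a fatty acid desaturase of plastids, and TPX2, a peroxiredoxin, had log2 differences of -3.69 (SE 0.46) and -3.58 (SE 0.29).

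The circadian clock of Arabidopsis holds a loop in which morning MYB factors such as CCA1 and LHY repress evening genes such as TOC1, GI, LUX and ELF4. Of these, TOC1 in turn represses CCA1 and LHY. In the ddm1 libraries the morning genes were low and the evening genes high. Of 11 morning clock genes, 9 were lower, none higher and 2 did not pass, with a median log2 difference of -2.58. Of 9 evening clock genes, all 9 were higher, with a median of 3.59. Since no harvest hour is given, a difference in the time of sampling and a difference in the clock itself cannot be told apart.

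LHY had 117 and 92.1 signal in ddm1, against 2761 and 2727 in WT (log2 difference -4.71, SE 0.12, adjusted p = 1.26e-07). CCA1 had 802 and 1016 in ddm1, against 6975 and 7577 in WT (-3.01, SE 0.25). RVE8, which activates evening genes, had 151 and 151 in ddm1, against 1626 and 1506 in WT (-3.37, SE 0.11). RVE2 and RVE6 were the members that did not pass the test.

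FKF1, a blue light receptor that promotes flowering at the end of long days, had 1912 and 1796 signal in ddm1, against 9.38 and 9.42 in WT (log2 difference 7.48, SE 0.21). ELF4 had 1716 and 1494 in ddm1, against 38.99 and 51.96 in WT (5.12, SE 0.19), and its partner in the evening complex, LUX, had 3867 and 3686, against 321 and 307 (3.59, SE 0.08). TOC1 had 4294 and 4904 in ddm1, against 744 and 675 in WT (2.69, SE 0.09). PRR5, a day-phased repressor, had 2539 and 2647 in ddm1, against 112 and 69.9 in WT (4.86, SE 0.20), while the rise of PRR7 was slight (0.24, adjusted p = 0.0455) and missed the threshold under 8 of 11 alternatives, with an adjusted p of up to 0.202. PRR7 was high in both groups, at 7228 and 7827 in ddm1 and 6233 and 6484 in WT, and none of these genes met the limit for being silent in WT.

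Outputs of the clock followed the same division. Evening outputs were higher for 5 of 6 genes and not called for CO. COR28, a regulator of clock and cold genes, had 1766 and 2136 signal in ddm1, against 7.02 and 6.37 in WT (log2 difference 7.98, SE 0.21). Its relative COR27 had 1263 and 1112 in ddm1, against 7.06 and 7.77 in WT (7.14, SE 0.25). GRP7, an RNA-binding protein peaking in the evening, had 134239 and 132035 in ddm1, against 3722 and 3144 in WT (5.28, SE 0.11), and CAT3, a catalase, had 318920 and 317518 in ddm1, against 45937 and 52737 in WT (2.69, SE 0.14). Of 8 morning outputs tested, 5 were lower, 1 (PIF4) was higher and 2 did not pass. CAT2, the morning catalase, had 6090 and 8434 in ddm1, against 43325 and 49767 in WT (-2.70, SE 0.16).

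**Figure D3:**
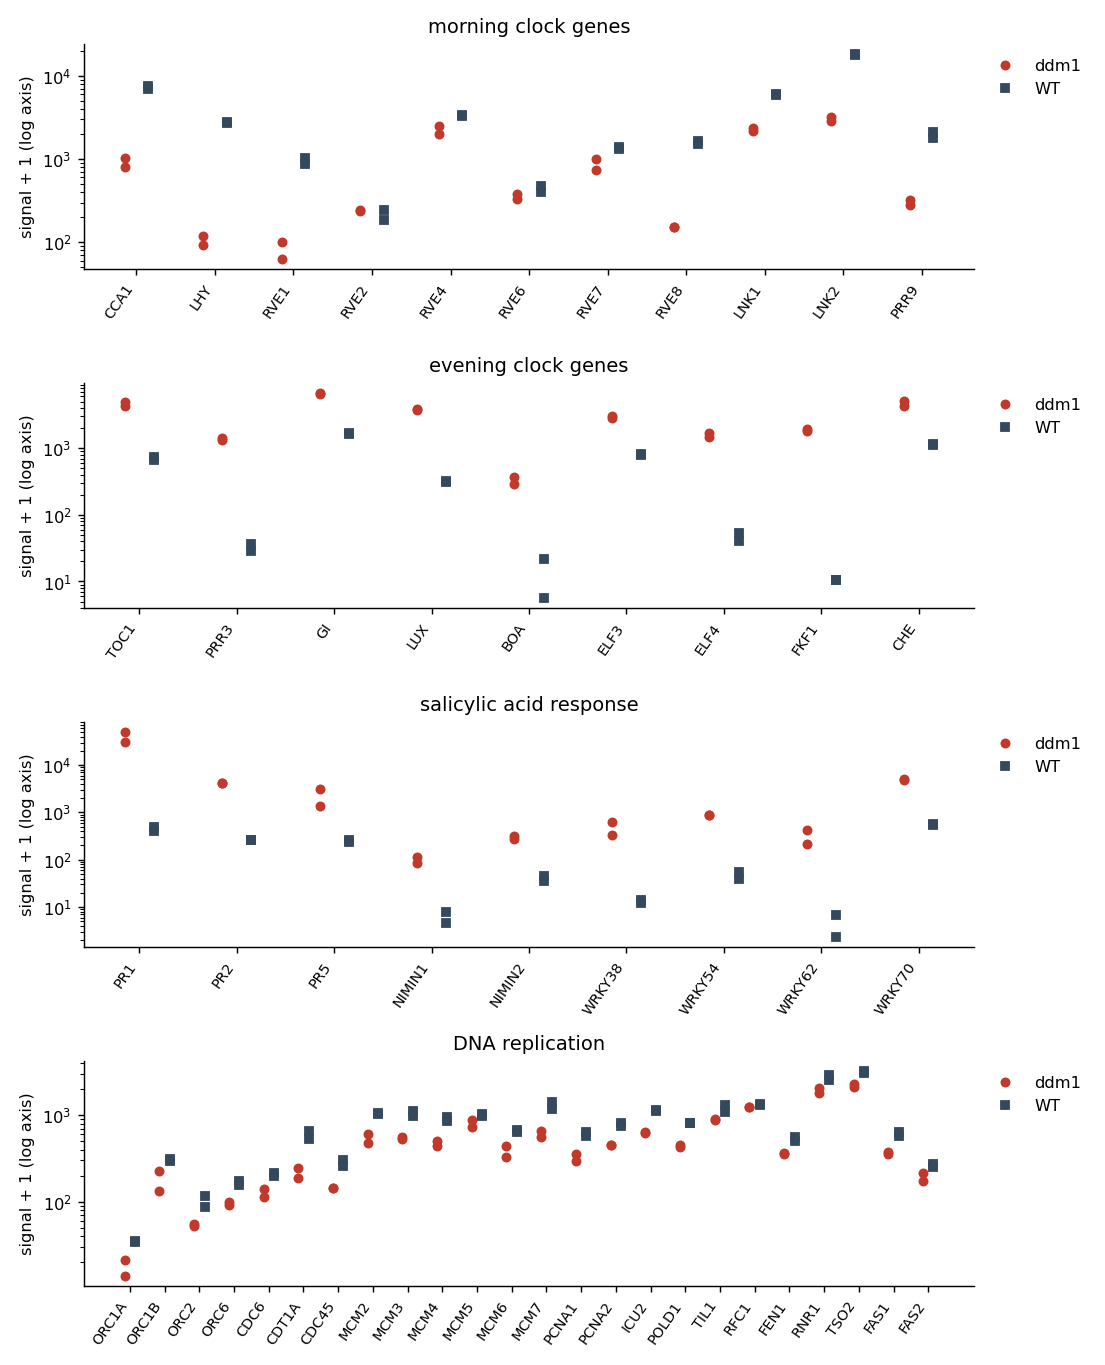
Signal + 1 on a log axis in each library for every member of 4 lists, with ddm1 (circles) left of WT (squares) and 2 points per group. Evening clock and salicylic acid response genes lie higher in both ddm1 libraries, most morning clock genes lie lower, and DNA replication genes lie lower by a smaller step, as for MCM2 at 600 and 474 in ddm1 and 1056 and 1030 in WT.

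The evening element, AAAATATCT, is the binding motif of the morning MYB factors in evening genes. Windows of 300 bases upstream of the annotated start were searched on both strands after the results were known, in 32546 genes of the table, and 2.65% held the motif. It was found in 4 of 9 evening clock genes (TOC1, LUX, BOA and FKF1), in 4 of 6 evening outputs (among them CAT3, GRP7 and GRP8) and in 1 of 11 morning clock genes. Among the 299 switched-on genes 8 had it (2.68%), among graded higher genes 4.23% and among graded lower genes 2.06%. The window of FKF1 is shown as that of the evening clock gene with the largest rise that holds it, 5′ to 3′ with the match in capitals, at chr1:25508339-25508638 on the plus strand of TAIR10.1. It has 1 match, 186 to 178 bases upstream.
FKF1: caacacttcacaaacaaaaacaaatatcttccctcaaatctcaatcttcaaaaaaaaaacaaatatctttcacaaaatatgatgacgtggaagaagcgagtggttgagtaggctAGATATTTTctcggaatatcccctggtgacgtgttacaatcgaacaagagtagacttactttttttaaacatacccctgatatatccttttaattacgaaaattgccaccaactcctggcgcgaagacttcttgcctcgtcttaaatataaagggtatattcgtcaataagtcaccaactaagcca
A match is only a match of letters; binding was not measured.

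Starch breakdown, which runs at night and is timed by the clock, was higher in 10 of 13 genes and lower in BAM9, with a median log2 difference of 1.83. The fall of BAM9 missed the threshold without ddm1 replicate 1 or WT replicate 2 (adjusted p = 0.0615 and 0.0805). PWD, a dikinase that phosphorylates starch, had 11826 and 12099 signal in ddm1, against 2136 and 2164 in WT (2.48, SE 0.07). SEX1, which acts before it, had 38821 and 36943 in ddm1, against 6420 and 7405 in WT (2.46, SE 0.09). BAM3, the main plastid beta-amylase of leaves, had 7435 and 7661 in ddm1, against 1567 and 1632 in WT (2.24, SE 0.06).

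Photosynthesis genes went both ways, with 6 of 30 higher, 11 lower and 13 not called; without WT replicate 1 these were 2 higher and 9 lower. The rises were all in light-harvesting proteins, for example LHCB1.3 at 1167600 and 1102155 signal in ddm1, against 469527 and 492160 in WT (log2 difference 1.24, SE 0.24). The falls included enzymes of carbon fixation, among them RCA, the activase of Rubisco, at 129877 and 141809 in ddm1, against 339253 and 350797 in WT (-1.35, SE 0.18), and GAPB, PRK and SBPASE of the Calvin cycle. RBCS2B, a small subunit of Rubisco, fell by 1.66 (SE 0.14). The copies of LHCB1 and RBCS are near-identical in sequence, so their single values are uncertain. In chlorophyll synthesis, 7 of 14 genes were lower and 2 higher. PORA and PORB, the light-dependent reductases of protochlorophyllide, were the ones that rose, PORB to 94697 and 88833 signal in ddm1, against 13663 and 16358 in WT (2.62, SE 0.12). GLK2, an activator of chloroplast genes, had 2191 and 2237 in ddm1, against 7923 and 8206 in WT (-1.86, SE 0.09).

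**Figure D4:**
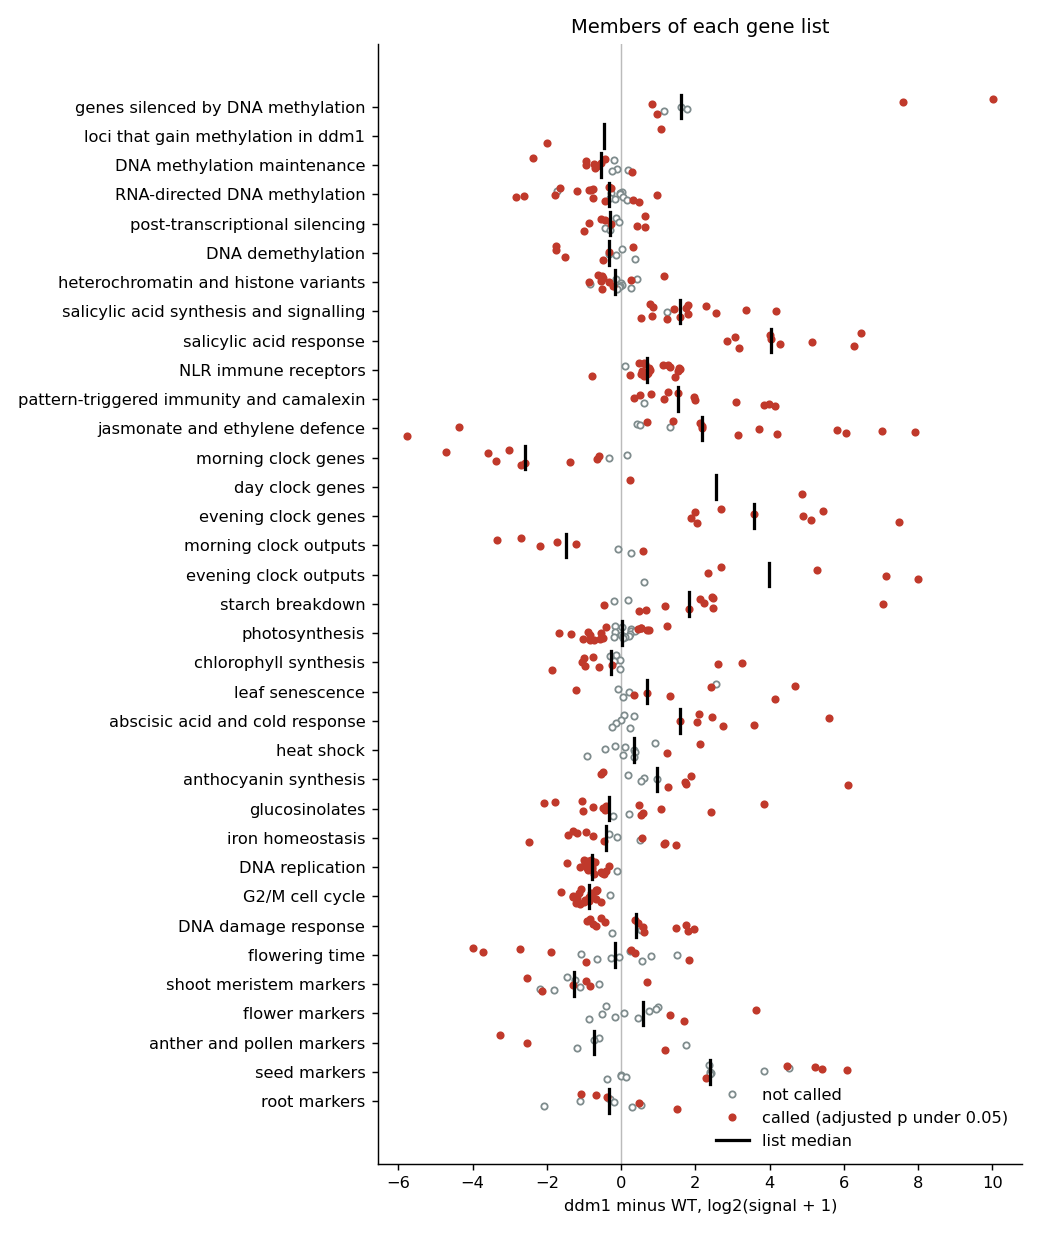
Log2(signal + 1) difference of ddm1 minus WT for each tested member of 35 gene and marker lists, with called members filled, members not called open, and the list median as a bar. The salicylic acid response and evening clock lists lie wholly to the right of 0, and the DNA replication and G2/M lists wholly to the left.

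Defence genes were broadly higher in ddm1. Salicylic acid is the hormone of defence against biotrophic pathogens; it is made through ICS1, EDS5 and PBS3 under the factors SARD1 and CBP60g, and perceived by NPR1 and its relatives. Of 15 synthesis and signalling genes, 14 were higher and none lower, with a median log2 difference of 1.60. All 9 response genes were higher, with a median of 4.02. SARD1 had 903 and 1535 signal in ddm1, against 71.1 and 57.4 in WT (4.18, SE 0.32), and SAG101, a partner of EDS1, had 1182 and 1321, against 259 and 255 (2.28, SE 0.10). ICS1 differed less, at 1423 and 1530 in ddm1, against 917 and 718 in WT (0.86, SE 0.15).

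PR1, the standard marker of the response, had 49519 and 31440 signal in ddm1, against 500 and 395 in WT (log2 difference 6.47, SE 0.27, adjusted p = 9.32e-07). PR2, a glucanase, had 4159 and 4122 in ddm1, against 254 and 262 in WT (3.998, SE 0.20). WRKY54, a regulator of the response, had 881 and 877 in ddm1, against 53.4 and 37.4 in WT (4.27, SE 0.21). Its relative WRKY70 had 4930 and 5073 in ddm1, against 577 and 532 in WT (3.17, SE 0.16). For every response gene both ddm1 libraries were above both WT libraries, and the share of all genes for which this held was not counted.

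Among 21 immune receptor genes of the NLR class that could be tested, 19 were higher, 1 was lower and 1 did not pass, with a median of 0.70. ADR1-L1, a helper receptor, had 5034 and 5510 signal in ddm1, against 1768 and 1834 in WT (1.55, SE 0.09), and RPP1, a receptor for downy mildew, was the member that fell (-0.79, SE 0.08). SNC1, RPP4 and RPP5, which lie in 1 cluster, rose by 0.48 to 0.65; their sequences are alike, so reads may be shared. Genes for recognition of microbial patterns and for the antimicrobial camalexin were higher in 12 of 13 cases. FLS2, the flagellin receptor, had 3001 and 3017 in ddm1, against 1275 and 1212 in WT (1.27, SE 0.07), and PAD3, the last enzyme of camalexin synthesis, had 2376 and 2606, against 128 and 153 (4.14, SE 0.25).

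Jasmonate and ethylene genes, which act against necrotrophs and insects, were higher in 12 of 17 and lower in 2. HEL (also called PR4), a chitin-binding protein, had 63425 and 54345 signal in ddm1, against 3061 and 3310 in WT (log2 difference 4.205, SE 0.16). ORA59, the factor that joins both hormones, had 565 and 729 in ddm1, against 59.2 and 39.2 in WT (3.71, SE 0.23). PDF1.2, its defensin target, had 1242 and 5001 in ddm1, against 28.7 and 11.1 in WT (7.04, SE 0.60); it has close copies among which reads may be shared. PRB1, a basic PR1 relative, went the other way, at 27.6 and 1.02 in ddm1, against 427 and 393 in WT (-5.76, SE 0.98).

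Other metabolic and stress groups were mixed. In the abscisic acid and cold list, 7 of 13 were higher and none lower. COR15B, a chloroplast protector in cold, had 7438 and 5090 signal in ddm1, against 115 and 139 in WT (log2 difference 5.59, SE 0.26), while RD29B, RAB18 and NCED3, genes of the abscisic acid branch, did not pass. Heat shock genes were called in 2 of 11 cases, HSFA7A (2.11, SE 0.20) and HSP17.6A (1.25, adjusted p = 0.0469), and HSP17.6A missed the threshold under 7 of 10 alternatives, with an adjusted p of up to 0.188. Senescence genes were higher in 6 of 11, with SAG13 at 3538 and 2940 in ddm1, against 145 and 107 in WT (4.69, SE 0.16), and lower in 1, SWEET15.

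Anthocyanin synthesis was higher in 5 of 11 genes tested and lower in 2. DFR, a late enzyme of the pathway, had 691 and 804 signal in ddm1, against 171 and 241 in WT (log2 difference 1.87, SE 0.19), and the early enzymes TT4 and TT5 were the lower ones. Without WT replicate 1, 3 were higher and 1 lower. In glucosinolates, the defence compounds of the cabbage family, 6 of 16 were higher and 8 lower, and without WT replicate 1 these were 3 and 6. MYB51, which drives the indolic branch, had 2530 and 3956 in ddm1, against 228 and 212 in WT (3.84, SE 0.22), whereas MYB28 and MYB29, which drive the aliphatic branch, had log2 differences of -1.04 (SE 0.08) and -1.78 (SE 0.12). MYB34, an indolic factor, fell by 2.07 (SE 0.15). Iron genes were lower in 7 of 14 and higher in 4. The ferritins FER1, FER3 and FER4, which store iron, rose by 1.15 to 1.47, and PYE and NAS4 of the deficiency response had log2 differences of -1.43 (SE 0.12) and -2.49 (SE 0.21).

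Genes of dividing cells were lower almost throughout. Of 24 DNA replication genes, 23 were lower and none higher, with a median log2 difference of -0.79, and RFC1 did not pass. Of 22 G2/M genes, 21 were lower and none higher, with a median of -0.88, and CDKB2;2 did not pass. In whole seedlings, fewer cells of a type and less RNA per cell cannot be told apart.

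CDT1A, which licenses origins, had 185 and 245 signal in ddm1, against 650 and 532 in WT (log2 difference -1.46, SE 0.16). MCM3, of the replicative helicase, had 552 and 526 in ddm1, against 1118 and 975 in WT (-0.95, SE 0.08). POLD1, the catalytic subunit of polymerase delta, had 431 and 452 in ddm1, against 821 and 810 in WT (-0.88, SE 0.08). HIK, a kinesin that builds the cell plate, had 480 and 576 in ddm1, against 1330 and 1246 in WT (-1.29, SE 0.10), and KN, a cytokinesis syntaxin, had 503 and 554, against 1310 and 1283 (-1.29, SE 0.12). In all of these, which were picked among the called members, both ddm1 libraries were below both WT libraries. The share of all genes for which this held was not counted.

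The E2F site, TTTCCCGC, is the motif of the factors that activate S-phase genes. It was found on either strand in 0.648% of the upstream windows, in 8 of 24 replication genes and in 0 of 22 G2/M genes. MCM2 is shown as an example among the 8, at chr1:16969914-16970213 on the plus strand of TAIR10.1, with the match in capitals.
MCM2: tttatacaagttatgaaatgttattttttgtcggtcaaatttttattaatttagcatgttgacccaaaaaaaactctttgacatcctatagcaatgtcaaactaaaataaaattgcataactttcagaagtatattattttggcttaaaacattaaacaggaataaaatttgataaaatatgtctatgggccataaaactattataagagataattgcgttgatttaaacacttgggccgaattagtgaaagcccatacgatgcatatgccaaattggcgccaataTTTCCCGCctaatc
A core of the W-box, TTGACC, the motif of WRKY factors, was searched in the same way and occurred in 13.6% of all windows, 5 of 13 genes of pattern-triggered immunity and camalexin, 0 of 15 salicylic acid synthesis genes and 0 of 9 response genes.

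DNA damage genes did not fall with the cell cycle as a group, with 8 of 16 higher and 6 lower. RAD17, a checkpoint clamp loader, had 521 and 540 signal in ddm1, against 163 and 155 in WT (log2 difference 1.73, SE 0.10), and SMR4 and SMR7, inhibitors of cyclin-dependent kinases that rise after damage, rose by 1.48 (SE 0.28) and 1.96 (SE 0.39). RAD54, a recombination motor, had 159 and 174 in ddm1, against 306 and 259 in WT (-0.76, SE 0.11).

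Genes of the methylation machinery itself were more often lower than higher. In maintenance, 8 of 13 genes were lower, DDM1 among them, and IBM1, a histone demethylase, was higher, though not without WT replicate 1 (adjusted p = 0.0608). CMT3, the methyltransferase of CHG sites, had 653 and 626 signal in ddm1, against 1298 and 1159 in WT (log2 difference -0.94, SE 0.08), and VIM3, a reader of methylated cytosine, had 307 and 269, against 605 and 505 (-0.94, SE 0.11). MET1, the CG methyltransferase, differed less (-0.45, SE 0.11). With an absolute log2 difference of at least 1 required, DDM1 was the only maintenance gene called. In the RNA-directed pathway, 12 of 24 were lower and 3 (KTF1, MORC6 and CLSY3) higher. The higher calls were not stable: 1 was left without ddm1 replicate 1 or without WT replicate 2, and 2 without WT replicate 1, with 13, 10 and 10 lower. SUVH9, which recruits polymerase V, had 225 and 275 in ddm1, against 1719 and 1801 in WT (-2.82, SE 0.10), NRPE1, the large subunit of that polymerase, had 241 and 305, against 856 and 832 (-1.63, SE 0.12), and CLSY4, which guides polymerase IV, had 16.1 and 6.39, against 61.2 and 75.5 (-2.62, SE 0.37).

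Demethylation genes were lower in 5 of 10 and higher in 1. ROS1, the glycosylase that removes methylcytosine and whose promoter needs methylation for its activity, had 643 and 819 signal in ddm1, against 2486 and 2419 in WT (log2 difference -1.76, SE 0.10), and DML3, its relative, had 102 and 102, against 309 and 381 (-1.74, SE 0.21). DME, active in the gamete companion cells, was the higher one (0.31, SE 0.08), and missed the threshold without ddm1 replicate 2 or WT replicate 2 (adjusted p = 0.0614 and 0.0689). Of 12 genes for post-transcriptional silencing, 5 were lower and 3 higher, and without either WT library 4 were lower and 1 higher. AGO10, an Argonaute of the meristem, had 1150 and 1280 in ddm1, against 2465 and 2383 in WT (-0.998, SE 0.09), and RDR1, a polymerase of antiviral silencing, had 957 and 918, against 590 and 604 (0.65, SE 0.09). Among 20 heterochromatin and histone genes 9 were lower and 2 higher. The linker histones H1.1 and H1.2 had log2 differences of -0.61 (SE 0.06) and -0.52 (SE 0.07), and the stress-induced linker histone H1.3 rose by 1.16 (SE 0.24), to 1231 and 1472 in ddm1, against 532 and 682 in WT.

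In the flowering time list, 3 of 16 genes were higher and 5 lower; without WT replicate 1 these were 1 and 3. FLC, the repressor lifted by winter, was at 0 in both ddm1 libraries, against 13.0 and 16.8 in WT. Its relative MAF1 had 139 and 218 signal in ddm1, against 1129 and 1196 in WT (log2 difference -2.73, SE 0.35), and MAF4 had 13.0 and 1.32, against 68.2 and 80.4 (-3.72, SE 0.74). SPL4, a promoter of flowering, had 202 and 266 in ddm1, against 65.5 and 62.8 in WT (1.84, SE 0.25).

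Markers of single organs and cell types show what else differed between the seedling samples. Of 12 shoot meristem markers tested, 5 were lower and 1 (CLV1) was higher; without ddm1 replicate 1, 9 were lower and 1 higher. The sum of the shoot meristem markers was 4306 and 4373 signal in ddm1, against 4246 and 4222 in WT. KNAT1, a homeobox gene of the meristem and stem, had 91.4 and 53.9 signal in ddm1, against 405 and 423 in WT (log2 difference -2.54, SE 0.26), and ANT, of growing organ primordia, had 407 and 321, against 895 and 869 (-1.28, SE 0.15); WUS was at 0 in all 4 libraries and STM did not pass. Root markers were lower in 3 of 12 and higher in 2 (2 and 1 without WT replicate 2), and their sum was 4321 and 4292 in ddm1, against 6758 and 6542 in WT. Flower markers were higher in 3 of 12, SEP3 with 404 and 413 in ddm1, against 184 and 147 in WT (1.303, SE 0.15). Anther and pollen markers were low throughout, with a sum of 73.5 and 88.4 in ddm1, against 108 and 118 in WT. Of 7 tested, 1 (VEX1) was called higher and 2 (CALS5 and AMS) lower. VEX1 missed the threshold with a pseudocount of 0.1 or a replicate block. Seed markers were called higher in 5 of 15 and lower in none, but in the sums given above only ddm1 replicate 1 was high. Without that library 1 was higher and 1 lower, and without ddm1 replicate 2, 10 were higher. The part of organ makeup in the changes of cell cycle, photosynthesis and methylation genes was not tested.

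The group means of the comparison of tcx5/6 ddm1 with tcx5/6 come from other libraries than those of ddm1 with WT. The spread comes from the fit of all 8 libraries, so the p-values of the comparisons are not independent. The kind of library divides both comparisons in the same way. For tcx5/6 ddm1 against tcx5/6, 25.7% of tested genes were higher and 26.0% lower. All 9 salicylic acid response genes and all 9 evening clock genes were higher there too, and 10 of 11 morning clock genes lower. Starch breakdown was higher in 10 of 13 genes. The G2/M list was lower in 19 of 22 genes, while DNA replication was lower in 9 and higher in 2 of 24, against 23 lower and none higher for ddm1 with WT. Photosynthesis was lower in 25 of 30 and higher in none, and iron genes were higher in 10 of 14 and lower in 2. Whether any list differed between the comparisons was not tested.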

How the data were processed

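mRNA libraries of 2-week seedlings were analysed from 1 table of 8 libraries (ddm1, WT, tcx5/6 ddm1 and tcx5/6, 2 each); a table of WT leaf and shoot apical meristem libraries served only to count where switched-on genes are detected. The deposited values have the unit signal: counts per gene that the authors had adjusted to a common library size, which made them fractional. The submitters' processing notes name HISAT2, edgeR and TAIR10; no source used here states versions, counter, annotation or strand setting. The totals given in the report are adjusted totals, so the depth sequenced is unknown and no counting intervals were computed. Values below 1e-06 were read as 0.

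With limma 3.58.1 in R 4.3.3, limma-trend was fitted to log2(signal + 1) for genes with at least 1 signal in at least 2 of 8 libraries, with 1 coefficient per group; the spread is thus shared by 4 groups. P-values are two-sided and adjusted by Benjamini-Hochberg over 25016 genes. The fit was tested on simulated data. Centromere midpoints were taken as 15, 4, 14, 4 and 12 Mb on chromosomes 1 to 5. Gene names, positions and sequences came from the RefSeq TAIR10.1 annotation; Python 3.11.15 and matplotlib 3.10.9 drew the figures. Members, lists, motifs and classes were chosen with earlier results of these data known. Genes named are the mutated genes, the highest 15 switched-on genes and the highest 10 with a symbol, switched-on list members and microRNA loci, the highest 5 switched-off genes, the 10 largest graded changes each way, and the 3 smallest p-values per list and direction, with other list members where a list is described. Alternatives covered scaling, filter, pseudocount, fold threshold, libraries in the fit, a replicate block, class limits and leaving out each library.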

Additional observations from a re-analysis of the deposited data

How the results depend on the processing

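Called genes numbered 12418 in the analysis reported, and 12053 to 12523 with median-of-ratios scaling, no filter, a filter at 20 signal, a pseudocount of 0.1, the ddm1 and WT libraries alone, or the replicate block (12302). Leaving out 1 library gave 9057 to 11311. Requiring an absolute log2 difference of at least 1 left 5376 called genes, 3319 graded genes and 234 called list members in place of 404. Graded genes numbered 7728 to 9238 with 1 library left out, and called list members 330 to 394. Switched-on genes numbered 233 to 397 over the limits tried and 326 to 358 without 1 library. Switched-off genes depended on the limits: 19 became 8 with both ddm1 libraries listed at 0, 41 with a silence limit of 5, 38 with an on limit of 10 and 5 with an on limit of 50. Without 1 library there were 22 to 65, with 65 and 48 when the condition fell on a single ddm1 library.

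Replicate numbers did not pair the libraries: the deviations of same-numbered ddm1 and WT libraries correlated at 0.0386 across 20339 genes. Of 209 named genes under 11 alternatives each where testable, none changed sign while called in the analysis reported or in the alternative. Changes of sign without a call in either were not counted. Of 2284 values, 124 lost their call and 2 gained one, 49 of the lost calls through the fold threshold. With a library left out, the lone library of its group was assumed to vary like the other groups.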
